A study of Mus musculus with 4 samples.

Results

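The mevalonate arm of cholesterol synthesis was followed through 9 genes in invariant natural killer T (iNKT) cells of the mouse thymus. The genes were Acat2, Hmgcs1, Mvk, Pmvk, Mvd, Idi1, Fdps, Ggps1 and Fdft1, chosen by symbol as enzymes between acetyl-CoA and squalene, and all 9 were found among the 32285 gene rows of the count matrices. They do not cover every step of the arm. Thymi of mice aged 6 to 8 weeks gave the cells, which passed a magnetic bead enrichment before a sort for CD3+ and CD1d tetramer+. Single-cell libraries, 4 in all, were made with the 10x Genomics 3′ kit: 2 from wild-type mice (WT 1 and WT 2) and 2 from mice labelled as ACC1 knockouts (ACC1 KO 1 and ACC1 KO 2). The sources used here do not give the allele, any Cre driver or the strain, nor say whether each library is 1 animal. Between genotypes, p-values below thus measure the spread between libraries, which may be technical. That spread takes in any difference between libraries numbered 1 and those numbered 2. Fits that compare classes or test interactions hold the library as a term. Their p-values measure how much class differences vary between libraries.

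The mevalonate arm joins acetyl-CoA units into branched, 5-carbon isoprenoid blocks and links these into farnesyl diphosphate. From there the carbon can go to squalene and cholesterol, or to the lipid anchors of small GTPases, to ubiquinone and to dolichol. In mammalian cells most genes of the arm are targets of the transcription factor SREBP2, which is held in the endoplasmic reticulum while sterols are plentiful, and dividing T cells are known to raise them. ACC1, the product of Acaca, carboxylates cytosolic acetyl-CoA to malonyl-CoA, the first step of fatty acid synthesis, and so draws on the same precursor.

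Over all iNKT cells 8 of the 9 genes stood higher in both ACC1 KO libraries than in either WT library, the exception being Ggps1. Of all genes tested 14.4% did so, on counts scaled by TMM. The widest gaps were those of Fdps, the farnesyl diphosphate synthase, with 2.94 times the WT mean, and Idi1, the isopentenyl diphosphate isomerase, with 2.58 times. With 2 libraries per genotype the edgeR test, adjusted over all genes, called none of the 9. DESeq2 called Fdps, Idi1 and Hmgcs1, beside 0.707% of all genes. Cycling cells held more Fdps, Pmvk and Idi1 than iNKT1-like cells of the same libraries, and iNKT2-like cells held less Idi1 and Hmgcs1. In these 2 comparisons 65.5 and 54.4% of all genes were called, so such calls do not set the members apart. Pmvk also differed between the clusters of cycling cells.

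RefSeq promoters (GRCm38.p6, 250 bases before to 50 after the annotated start) were matched for 7 of the 9 genes: Acat2, Hmgcs1, Mvk, Pmvk, Mvd, Idi1 and Ggps1. They were searched on both strands for TCACNCCAC and CACCCCAC, which are sterol regulatory element types that overlap in TCACCCCAC, and for CCAAT, the box bound by NF-Y, a factor known to act with SREBP2. Among 32851 promoters of the same length these motifs were found in 1.24%, 2.87% and 37.4%. The 4 below are shown because Hmgcs1, Mvk and Idi1 stood higher in the ACC1 KO libraries and Ggps1 did not. Capitals mark matches to the motifs, ATTGG being CCAAT on the other strand. They lie at chr13:119690101-119690400 (plus strand), chr5:114444019-114444318 (plus), chr13:8885356-8885655 (plus) and chr13:14063439-14063738 (minus), in that order.
Hmgcs1: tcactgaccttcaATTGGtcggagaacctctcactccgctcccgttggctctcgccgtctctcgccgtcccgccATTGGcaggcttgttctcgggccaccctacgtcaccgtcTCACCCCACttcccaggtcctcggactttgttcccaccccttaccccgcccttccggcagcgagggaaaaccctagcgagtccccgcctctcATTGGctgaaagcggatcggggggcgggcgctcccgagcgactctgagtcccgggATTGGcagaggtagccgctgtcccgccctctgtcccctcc
Mvk: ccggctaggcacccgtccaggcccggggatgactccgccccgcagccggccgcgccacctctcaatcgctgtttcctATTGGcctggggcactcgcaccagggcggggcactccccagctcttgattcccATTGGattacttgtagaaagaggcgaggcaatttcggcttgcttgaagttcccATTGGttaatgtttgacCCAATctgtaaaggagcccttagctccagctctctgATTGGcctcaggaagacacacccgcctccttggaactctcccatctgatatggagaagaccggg
Idi1: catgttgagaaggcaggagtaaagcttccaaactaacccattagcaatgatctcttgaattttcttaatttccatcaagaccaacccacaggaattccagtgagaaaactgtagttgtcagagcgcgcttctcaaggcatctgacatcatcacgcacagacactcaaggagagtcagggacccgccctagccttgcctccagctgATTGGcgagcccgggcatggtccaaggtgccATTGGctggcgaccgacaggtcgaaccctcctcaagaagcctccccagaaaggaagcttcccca
Ggps1: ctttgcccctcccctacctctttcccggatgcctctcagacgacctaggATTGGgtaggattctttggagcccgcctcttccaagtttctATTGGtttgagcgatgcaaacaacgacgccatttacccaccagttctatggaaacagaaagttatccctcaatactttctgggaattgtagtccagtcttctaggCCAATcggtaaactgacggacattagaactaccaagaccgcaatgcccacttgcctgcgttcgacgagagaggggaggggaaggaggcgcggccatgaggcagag
Hmgcs1 alone of the 7 held TCACNCCAC, with its first base at -137 from the start, beside 4 CCAAT boxes. Acat2 held CACCCCAC at -181 and no CCAAT. Mvk held 5 CCAAT boxes, the most of the 7, against 2 in Mvd, 2 in Idi1 and 3 in Ggps1. A single CCAAT was found in 1 of the 2 Pmvk promoters. The GC box, GGGCGG, was found in Acat2, Hmgcs1, Mvk, Mvd and Idi1 and in 35.7% of all promoters. A match is a description of these letters and not a bound site.

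The libraries held 5499, 9927, 6416 and 8613 barcodes with 29066597, 72803841, 33205137 and 74190167 UMIs (unique molecular identifiers), in the order WT 1, WT 2, ACC1 KO 1 and ACC1 KO 2. After filters 4614, 9021, 5608 and 7803 iNKT cells were used, with 23422262, 62518157, 28362078 and 64994217 UMIs, and any pair of libraries shared 10 to 27 barcodes, at most 0.33% of the smaller library. Levels are in CPM, the UMIs of a gene per 1000000 UMIs of all iNKT cells, or of all cells of a class, in a library. Libraries numbered 1 were shallower and carried Ddx3y (82.1 and 77.1 CPM) with Xist at 0.60 and 0.25 CPM, whereas libraries numbered 2 were deeper and carried Xist (590 and 651 CPM), so number, depth and these 2 sex-linked genes cannot be told apart. Acaca itself was at 34.5 and 32.0 CPM in WT and at 47.2 and 60.0 CPM in ACC1 KO. The kit reads 3′ ends and the deleted part of Acaca is not given, so these tags do not check the genotype labels. Clusters made without lipid genes gave iNKT1-like (72.1 to 80.6% of the iNKT cells of a library), cycling, iNKT2-like and interferon-responding cells and 1 unnamed cluster led by Izumo1r and Maf, which held 11.9 and 4.71% of WT and 2.09 and 1.99% of ACC1 KO cells. iNKT0-like and iNKT17-like cells fell under 50 cells in a library and were not tested, save iNKT0-like cells at a finer clustering. The largest iNKT1-like cluster was number 2 in WT 1 (1217 cells), number 1 in WT 2 (1921) and number 0 in ACC1 KO 1 and 2 (1845 and 1716). Izumo1r is a marker of iNKT2 cells and leads that unnamed cluster beside genes of other classes, for which reason it was left without a name. Its marker score was nonetheless higher for iNKT1 (2.70) than for iNKT2 (1.70). With lipid genes kept in the clustering, the cluster led by Izumo1r was named iNKT1.

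**Figure D1:**
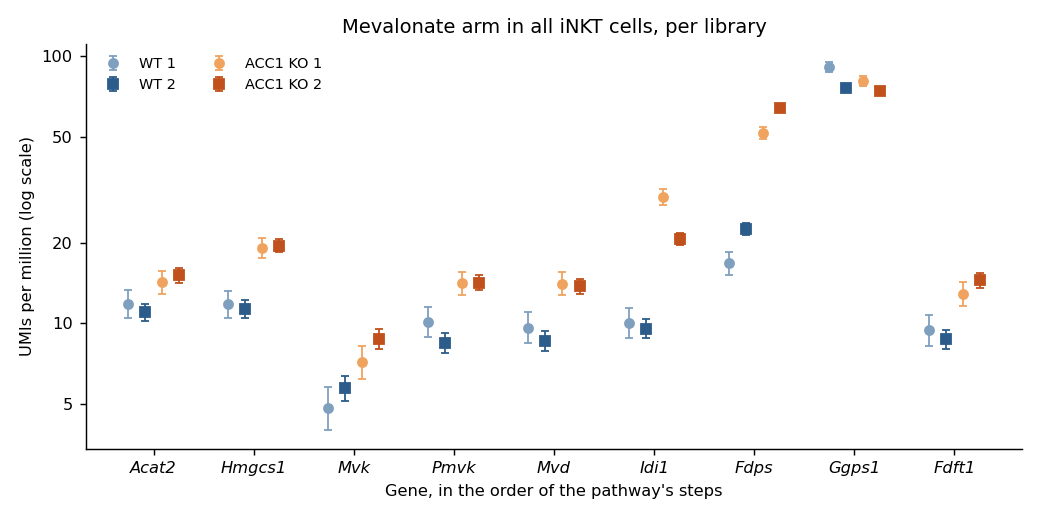
Level of each gene in all iNKT cells (vertical axis, CPM on a log scale) in the 4 libraries, with genes along the horizontal axis in the order of their steps. Bars are 95% Poisson intervals of the count and cover counting error only. Both ACC1 KO points lie above both WT points for every gene but Ggps1.

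The arm opens with Acat2, the cytosolic thiolase that condenses acetyl-CoA units, which stood at 11.8 and 10.99 CPM in WT and at 14.3 and 15.1 CPM in ACC1 KO. Its 2 groups did not overlap, and the log2 fold change of ACC1 KO against WT was 0.42 ± 0.14 (SE, n = 2 libraries each). In 19.7% of the 90-base windows near its 3′ end Acat2 is identical to Acat3, a neighbouring paralog, which held only 14, 16, 7 and 19 UMIs, so reads could be shared between them. Hmgcs1, which adds the next acetyl unit to form HMG-CoA, stood at 11.8 and 11.3 CPM in WT and at 19.1 and 19.5 CPM in ACC1 KO. The ACC1 KO libraries differed from each other by far less than from either WT library, with a log2 fold change of 0.79 ± 0.13.

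The kinases and the decarboxylase that turn mevalonate into isopentenyl diphosphate stood higher by folds between those of Acat2 and Hmgcs1. Mvk, mevalonate kinase, stood at 4.82 and 5.71 CPM in WT and at 7.16 and 8.75 CPM in ACC1 KO, and its log2 fold change was 0.64 ± 0.22. Pmvk, phosphomevalonate kinase, stood at 10.2 and 8.48 CPM in WT and at 14.2 and 14.2 CPM in ACC1 KO. Mvd, the diphosphomevalonate decarboxylase, stood at 9.65 and 8.62 CPM in WT and at 14.1 and 13.8 CPM in ACC1 KO. None of the 3 overlapped between genotypes, and Pmvk and Mvd had near-equal log2 fold changes of 0.66 ± 0.15 and 0.66 ± 0.15.

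Idi1 makes the allylic isomer that starts chain building. It stood at 10.0 and 9.57 CPM in WT and at 29.8 and 20.7 CPM in ACC1 KO, with a log2 fold change of 1.41 ± 0.20. Here the ACC1 KO libraries differed from each other, number 1 being the higher. Fdps, which joins the blocks into farnesyl diphosphate, stood at 16.8 and 22.6 CPM in WT and at 51.8 and 64.2 CPM in ACC1 KO, with a log2 fold change of 1.60 ± 0.23. The lower ACC1 KO library was still more than 2 times the higher WT library. Near their 3′ ends Idi1 shares 37.1% of windows with other transcripts (Gm13502 and Gm35570) and Fdps shares 66.6% (Gm3571, Gm43738, Gm5873 and Gm8163). These are not among the gene rows of the matrices, so they have no counts of their own. How reads common to them were counted bears on the level of both genes. Gm43738 overlaps Fdps on the same strand, so part of the 66.6% may be sequence of the Fdps locus itself.

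Farnesyl diphosphate is the branch point, and the enzymes that take it further were unlike each other. Ggps1, which lengthens it to geranylgeranyl diphosphate for protein prenylation, stood at 90.9 and 76.1 CPM in WT and at 80.9 and 74.4 CPM in ACC1 KO. Its groups overlapped and its log2 fold change was -0.05 ± 0.13, a sign that turned to 0.04 without WT 1. Ggps1 lies on the opposite strand of Arid4b, which it overlaps, and shares 3.38% of its windows with Gm5630. Fdft1, squalene synthase, which commits farnesyl diphosphate to sterols, stood at 9.44 and 8.72 CPM in WT and at 12.9 and 14.5 CPM in ACC1 KO, without overlap and with a log2 fold change of 0.65 ± 0.16.

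Summed, the 9 genes held 175 and 162 CPM in WT and 244 and 245 CPM in ACC1 KO. Ggps1, which overlapped between genotypes, made up 90.9 and 76.1 CPM of this in WT and 80.9 and 74.4 CPM in ACC1 KO. Of all 14710 genes tested, 14.4% had both ACC1 KO libraries above both WT libraries on TMM-scaled CPM and 15.1% had both below, against 8 and 0 of the 9. The median log2 fold change was 0.66 over the 9 and -0.01 over all genes. Within a number the direction was the same for the 8 genes: Fdps differed by 1.62 (log2 CPM) between the libraries numbered 1 and by 1.51 between those numbered 2, Idi1 by 1.57 and 1.12, Hmgcs1 by 0.70 and 0.78, and Acat2, the smallest, by 0.27 and 0.46. Members were not tested within a number, which leaves 1 library per genotype.

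By the edgeR quasi-likelihood test with Benjamini-Hochberg adjustment over all genes, none of the 9 passed 0.05. The smallest adjusted p was 0.352 for Fdps and for Idi1, followed by 0.434 for Hmgcs1, and the largest was 0.9999 for Ggps1. In that fit 1 gene of 14710 was called (0.0068%) while 728 had an unadjusted p under 0.05, among them the 8 genes other than Ggps1 (0.000784 for Fdps, 0.00078 for Idi1 and 0.0319 for Mvk, the largest of the 8). DESeq2's Wald test on the same sums called 104 genes (0.707%), of which 3 were members: Fdps (adjusted p = 3.56e-07), Idi1 (1.74e-05) and Hmgcs1 (0.0283). Leaving out WT 1, WT 2 or ACC1 KO 1 brought Fdps past the edgeR threshold (adjusted p = 0.0348, 0.0118 and 0.0301), and leaving out ACC1 KO 2 brought Idi1 past it (0.0348), the lone library of a genotype then being assumed to vary like the others. In those 4 fits 22, 47, 31 and 12 genes were called in all, so the call of any member depends on the tool and on single libraries.

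The share of cells with a UMI was compared at equal depth. With every cell thinned to 2000 UMIs, Fdps was seen in 3.03 and 3.71% of WT cells and in 8.28 and 10.4% of ACC1 KO cells. Idi1 was seen in 1.77 and 1.42% against 5.15 and 3.61%, and Hmgcs1 in 2.16 and 2.11% against 3.38 and 3.65%. The 2 groups did not overlap for any of the 3, whereas Ggps1 was seen in 16.8 and 14.0% against 14.4 and 14.0%. Any of the 9 was seen in 28.7 and 26.3% of WT and in 34.3 and 36.3% of ACC1 KO cells, and 3 or more of them in the same cell in 0.33 and 0.21% against 0.80 and 0.98%. Without thinning, Fdps was seen in 7.24, 12.5, 19.6 and 33.1% of cells in the order WT 1, WT 2, ACC1 KO 1 and ACC1 KO 2. Too shallow for this were 29, 24, 128 and 20 cells. All cell types make these enzymes, so no cell type that lacks them could set a background share.

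Classes differed in how many of the 9 had both ACC1 KO libraries above both WT libraries on CPM. There were 8 in iNKT1-like, 7 in cycling, 7 in interferon-responding, 4 in iNKT2-like and 2 in Izumo1r and Maf cluster cells, where Ggps1 was below. Of the 14710 genes tested over all iNKT cells, 7.98, 14.5, 10.5, 14.7 and 13.0% stood above in those classes, in that order, and 19.1% below in the last. In iNKT1-like cells, the class with interferon-gamma and cytotoxic genes, Fdps stood at 14.8 and 18.9 CPM in WT and at 46.0 and 56.5 CPM in ACC1 KO, Idi1 at 9.84 and 8.52 against 29.6 and 19.8, and Hmgcs1 at 11.9 and 11.2 against 19.9 and 19.6. The log2 fold changes there were 1.69 ± 0.22, 1.51 ± 0.21 and 0.87 ± 0.13, and the median of the 9 was 0.74. Without ACC1 KO 1 the edgeR test called Fdps (adjusted p = 0.000263) and Idi1 (0.011) in iNKT1-like cells, and without ACC1 KO 2 it called the same pair (0.000158 and 1.86e-05). These fits called 67 and 72 genes in all, and without WT 1 or WT 2 no member was called, among 2 and 1 genes in all. Interferon-responding cells, which carry genes such as Ifit3 and Isg15, had the widest Fdps gap, from 9.96 and 15.9 CPM to 51.0 and 49.7 CPM, a log2 fold change of 1.94 ± 0.26. This was the nearest to a call in a class, with an adjusted p of 0.0666 by edgeR. It passed when any 1 library was left out, at adjusted p-values from 0.00777 to 0.0448 with 6 to 18 genes called in all, and by DESeq2 at 0.00126.

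Cycling cells came from 3 clusters that were unlike in other genes. Number 9 (701 cells) was led by replication genes such as Hells and Mcm3, number 14 (295 cells) by Mki67 and Top2a, and number 10 (532 cells) by Igfbp4, Nrgn and Top2a. Clusters 9 and 14 scored high for iNKT1 markers (2.92 and 2.75) and cluster 10 for iNKT2 markers (2.95, with -0.76 for iNKT1), so the class mixes these. Over the class Fdps stood at 44.4 and 51.7 CPM in WT and at 98.1 and 115 CPM in ACC1 KO, a log2 fold change of 1.14 ± 0.19, and Idi1 at 21.8 and 22.7 against 49.3 and 34.7 CPM, with 0.89 ± 0.23. All 9 members had a positive fold change in cycling cells, with a median of 0.60. Without WT 2 the edgeR test called Fdps there (adjusted p = 0.0173) among 24 genes in all, and no member was called without any other 1 library. In iNKT2-like cells, the IL-4 making class, Fdps stood at 24.9 and 27.1 CPM against 40.7 and 51.3 CPM, with 0.84 ± 0.27, and Idi1 at 3.68 and 3.87 against 12.2 and 9.53 CPM, with 1.49 ± 0.49. The Idi1 counts behind this were 4 and 6 UMIs in WT. Hmgcs1 did not part the genotypes in this class, at 12.0 and 10.3 CPM in WT and 11.3 and 11.01 CPM in ACC1 KO, a log2 fold change of 0.02 ± 0.37 whose sign turned to -0.08 without WT 2. The Izumo1r and Maf cluster had Fdps at 12.9 and 18.0 against 23.9 and 44.2 CPM, with 1.24 ± 0.35, and Hmgcs1 at 8.45 and 9.36 against 7.46 and 13.0 CPM, so that Hmgcs1 overlapped there. That Hmgcs1 log2 fold change, 0.31 ± 0.46, turned to -0.28 without ACC1 KO 2.

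**Figure D2:**
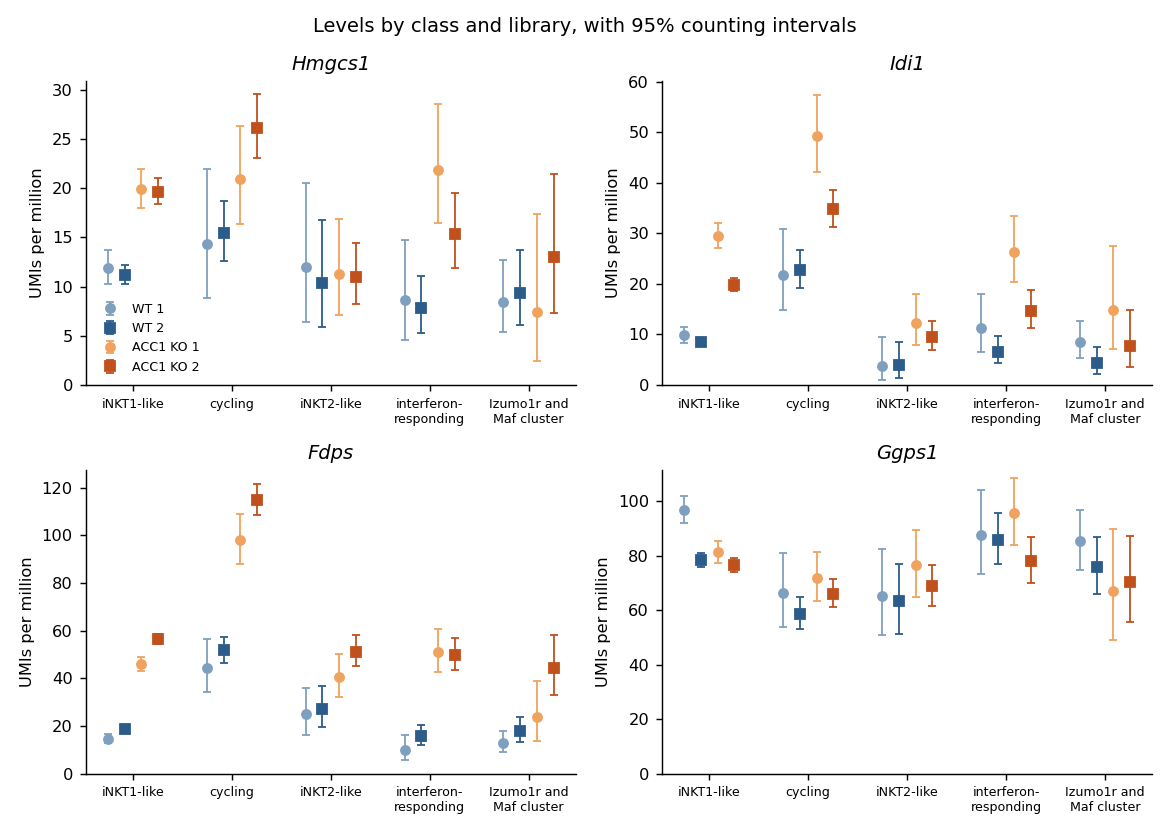
Levels of Hmgcs1, Idi1, Fdps and Ggps1 (vertical axes, CPM) in 5 classes of iNKT cells (horizontal axes) in the 4 libraries, with 95% Poisson intervals that cover counting error only. Fdps and Idi1 are higher in the ACC1 KO points of iNKT1-like, cycling and iNKT2-like cells, and Hmgcs1 does not separate the libraries in iNKT2-like cells.

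No member was called between genotypes in any class by edgeR. Of all genes tested 0.0147% were called in iNKT1-like, 0.0354% in cycling, 0.0497% in interferon-responding and 0.373% in Izumo1r and Maf cluster cells, and 0.0% in iNKT2-like cells. DESeq2 called Fdps, Idi1 and Hmgcs1 in iNKT1-like cells (adjusted p = 7.12e-08, 1.64e-05 and 0.0217), Fdps alone of the 9 in cycling cells (0.0267), and none in iNKT2-like cells or in the Izumo1r and Maf cluster. The test called 0.602% of all genes in iNKT1-like, 0.0797% in cycling, 0.139% in interferon-responding, 0.0% in iNKT2-like and 0.373% in Izumo1r and Maf cluster cells. Over the 14 iNKT clusters taken singly, the lower ACC1 KO library exceeded the higher WT library in 13 clusters for Idi1, 12 for Fdps, 11 for Acat2, 9 for Hmgcs1, 9 for Fdft1, 8 for Pmvk, 8 for Mvd, 6 for Mvk and 4 for Ggps1. Both ACC1 KO libraries were below both WT libraries in 2 clusters for Ggps1 and in 1 each for Hmgcs1, Mvk, Mvd and Fdps. Over all 14710 genes in the 14 clusters, 12.2% of pairs of a gene and a cluster stood above in this way and 15.5% below. Clusters share their libraries and are not replicates.

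**Figure D3:**
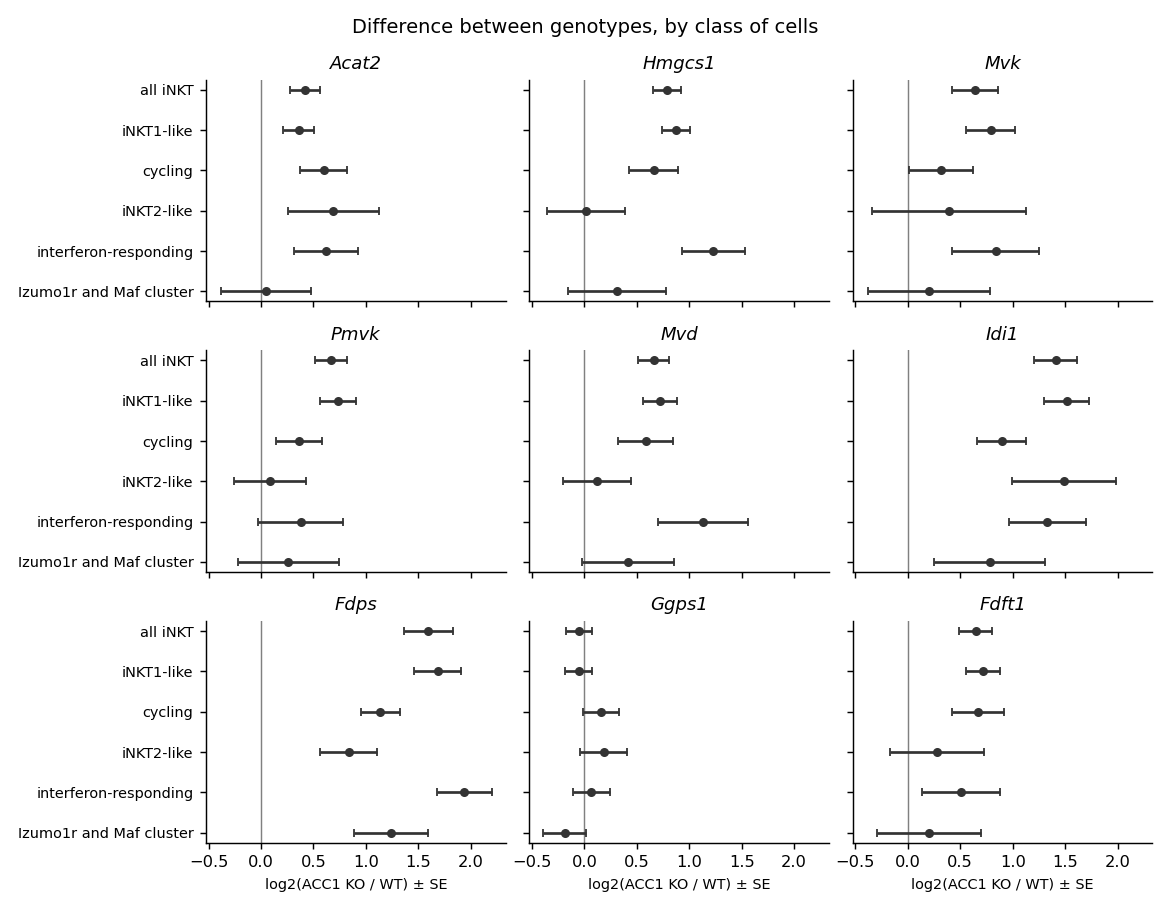
Log2 fold change of ACC1 KO over WT with its standard error (horizontal axes) for each of the 9 genes, in all iNKT cells and in 5 classes (vertical axes). Fdps lies between 0.84 and 1.94 and Idi1 between 0.78 and 1.51 in every class, while Ggps1 lies between -0.19 and 0.18.

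Whether the genotype gap itself differed between classes was tested as an interaction against iNKT1-like cells, with the library as a term. No member passed. The gap of Fdps was smaller in cycling cells by 0.52 ± 0.15 on the log2 scale (a difference of -0.52, adjusted p = 0.274) and smaller in iNKT2-like cells, at -0.83 ± 0.22 (adjusted p = 0.179). For Idi1 the difference was -0.66 ± 0.20 in cycling cells (adjusted p = 0.353) and 0.04 ± 0.46 in iNKT2-like cells, the latter with a sign that turned to -0.06 without WT 1 and to -0.05 without ACC1 KO 2. At a clustering resolution of 0.5 the Fdps difference in iNKT2-like cells, -0.90, passed the threshold. In these interaction tests 0.0961% of genes were called in cycling, 0.166% in iNKT2-like, 0.0% in interferon-responding and 0.463% in Izumo1r and Maf cluster cells.

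Classes were then compared with iNKT1-like cells inside the same libraries, both genotypes together. The classes were drawn from these cells, though without the 9 genes, and 65.5% of all genes were called between cycling and iNKT1-like cells, so 6 calls among 9 members are near the background. Of the 6, Fdps was higher in cycling cells by 1.16 ± 0.11 (log2, edgeR adjusted p = 5e-09), Pmvk by 1.03 ± 0.13 (3.26e-09), Idi1 by 0.93 ± 0.11 (1.61e-09), Acat2 by 0.51 ± 0.11 (9.55e-05) and Hmgcs1 by 0.28 ± 0.12 (0.0359). Ggps1 was lower, at -0.37 ± 0.07 (7.01e-06). Mvk, Mvd and Fdft1 did not pass, with 0.33 ± 0.17, -0.07 ± 0.14 and 0.19 ± 0.13, the sign of Mvd turning to 0.0051 without ACC1 KO 2. The call of Hmgcs1 was lost without WT 1, WT 2 or ACC1 KO 2, and Mvk was called without ACC1 KO 1. For Pmvk the clusters of the cycling class differed: in WT it stood at 32.1 and 20.5 CPM in cluster 10, at 9.25 and 13.3 CPM in cluster 9 and at 6.86 and 17.3 CPM in cluster 14, the last on 1 and 18 UMIs. In iNKT1-like cells of WT it stood at 9.02 and 7.07 CPM and in iNKT2-like cells at 13.8 and 16.8 CPM. Idi1 had the other order, at 11.6 and 16.3 CPM in cluster 10 of WT against 35.1 and 31.4 CPM in cluster 9 and 27.5 and 24.1 CPM in cluster 14.

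Between iNKT2-like and iNKT1-like cells 54.4% of genes were called and 7 of the 9 members were. Lower in iNKT2-like cells were Idi1, at -1.12 ± 0.18 (adjusted p = 1.81e-06), Hmgcs1, at -0.62 ± 0.17 (0.0022), Mvk, at -0.61 ± 0.25 (0.0364), Fdft1, at -0.56 ± 0.19 (0.0122), Acat2, at -0.46 ± 0.16 (0.013), and Ggps1, at -0.25 ± 0.08 (0.0057). Pmvk was higher, at 0.56 ± 0.17 (0.00437). Mvd had 0.37 ± 0.17 and Fdps 0.04 ± 0.15, neither past the threshold, and the sign of Fdps turned to -0.08 without WT 1 and to -0.06 without WT 2. Pmvk and Idi1 were called in opposite directions, but of all genes 3251 were called higher and 2984 lower, so both directions are common in this comparison. With clusters made with lipid genes Pmvk lost its call, and 0 members were called higher. Without ACC1 KO 1, WT 2 or ACC1 KO 2, 4, 4 and 5 of the 9 were called rather than 7. The share of all genes called fell too, to 47.3, 47.7 and 44.3%, so the lost calls do not set the members apart. Mvk lost its call in all 3 cases and Acat2 without ACC1 KO 1 or WT 2. Fdft1 lost its call without either ACC1 KO library, Pmvk without WT 2 and Hmgcs1 without ACC1 KO 2, where Mvd gained one. The calls of Idi1 and Ggps1 held without any 1 library. Interferon-responding cells gave no call among the 9 against a background of 10.2%, and in the Izumo1r and Maf cluster Idi1 (-0.86 ± 0.21, adjusted p = 0.00352) and Hmgcs1 (-0.57 ± 0.19, 0.0465) were lower, against 11.3% of all genes. Leaving out ACC1 KO 2 left neither of them called, and Hmgcs1 also lost its call without ACC1 KO 1 or WT 1.

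**Figure D4:**
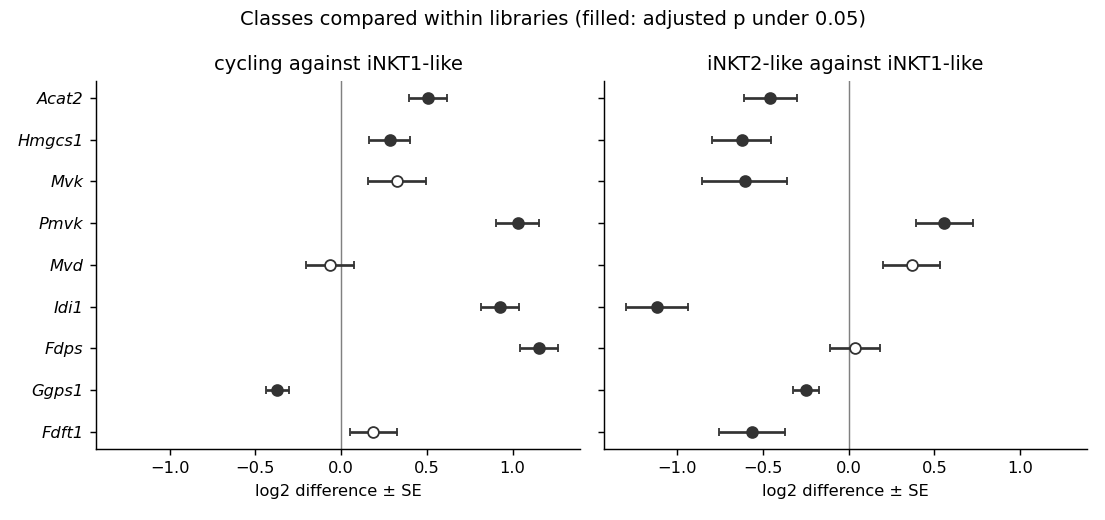
Log2 difference with its standard error (horizontal axes) of cycling (left) and iNKT2-like cells (right) from iNKT1-like cells of the same libraries, for the 9 genes (vertical axis). Filled points passed an adjusted p of 0.05, and Idi1 lies right of 0 in cycling cells and left of 0 in iNKT2-like cells.

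The order of the levels differed between genes. For Fdps in WT, cycling (44.4 and 51.7 CPM) and iNKT0-like cells (47.6 and 50.2 CPM) were highest and did not part from each other, iNKT2-like cells came next (24.9 and 27.1 CPM), and iNKT1-like, interferon-responding and Izumo1r and Maf cluster cells lay between 9.96 and 18.9 CPM with overlapping ranges. iNKT17-like cells, at 9.59 and 26.6 CPM on 5 and 17 UMIs, spanned both lower groups. For Idi1 in WT only cycling cells stood apart (21.8 and 22.7 CPM), and iNKT2-like cells were low (3.68 and 3.87 CPM) beside iNKT0-like cells (3.67 and 7.18 CPM). The iNKT0-like values of both genes come from 78 cells in WT 1 and 45 in WT 2 and rest on few molecules. Over the 5 classes tested, Ggps1 in WT ran from 58.7 CPM in cycling cells of WT 2 to 96.9 CPM in iNKT1-like cells of WT 1.

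Within the iNKT1-like class the level also differed by cluster, which is given as a description only. A cluster with Gnl3, Srm, Slc7a5 and Gzmb among its leading genes (number 5, with 120, 226, 411 and 931 cells) had the highest Fdps of the class in WT, at 35.6 and 35.3 CPM, and the highest Idi1, at 26.3 and 18.9 CPM. In its ACC1 KO cells Fdps stood at 63.2 and 78.2 CPM and Idi1 at 49.5 and 27.5 CPM. In each of the other 5 clusters of the class both ACC1 KO libraries stood above both WT libraries for Fdps, in cluster 1, for example, at 31.3 and 40.0 CPM against 10.4 and 13.7 CPM. Cells were also drawn at random so that all 4 libraries held the same mix of clusters, a comparison added after the data were seen. This kept 997, 3174, 2254 and 2989 cells in the order WT 1, WT 2, ACC1 KO 1 and ACC1 KO 2. The log2 fold change over all iNKT cells was then 1.47 for Fdps and 1.37 for Idi1.

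**Figure D5:**
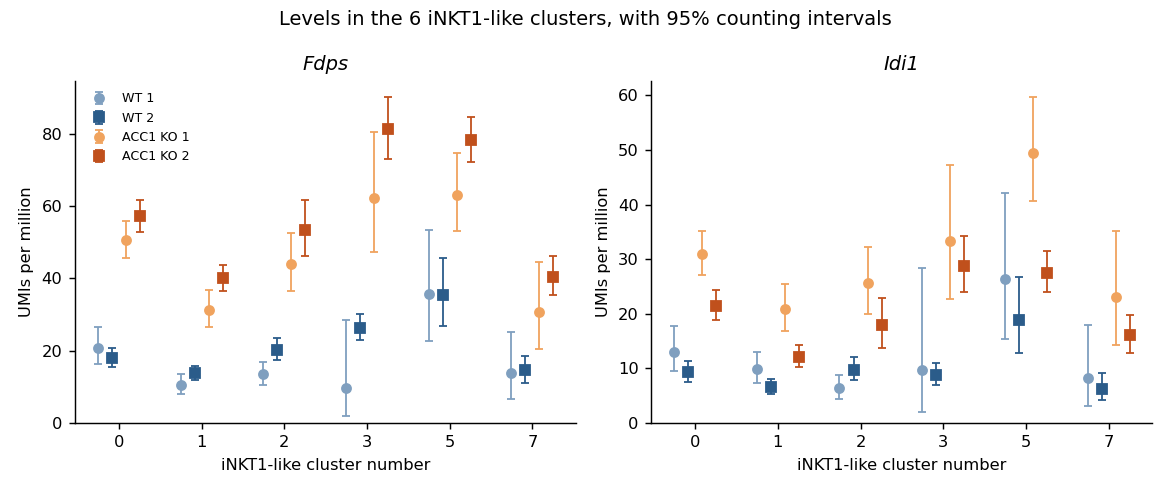
Levels of Fdps and Idi1 (vertical axes, CPM) in the 6 iNKT1-like clusters (horizontal axes, cluster number) and the 4 libraries, with 95% Poisson intervals that cover counting error only. Cluster 5 has the highest WT points, and the ACC1 KO points of Fdps are above the WT points in all 6 clusters.

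The genes around the arm give its setting. In the squalene to cholesterol arm 9 of 11 genes had both ACC1 KO libraries above both WT libraries and none had both below, with a median log2 fold change of 0.54. Of all genes tested 14.4% had both above and 15.1% had both below, on TMM-scaled CPM. Sqle, squalene epoxidase, stood at 1.96 and 1.49 CPM against 10.0 and 7.71 CPM, and Cyp51, the lanosterol demethylase, at 11.6 and 11.5 against 28.1 and 29.4 CPM. Among SREBP2 and the genes of its control 4 of 8 tested had both ACC1 KO libraries above and 1 had both below, with a median of 0.35. Insig1, which retains SREBP2's escort protein in the endoplasmic reticulum and is itself a sterol-regulated gene, stood at 7.98 and 8.30 against 23.1 and 26.8 CPM. EdgeR called none of these lists' genes in all iNKT cells. DESeq2 called 4 of 11 and 3 of 8, Sqle, Cyp51 and Insig1 among them, beside 0.707% of all genes.

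Genes that use the arm's isoprenoids were also counted. Of 16 prenyl transferases, processing enzymes and ubiquinone and dolichol enzymes, 0 had both ACC1 KO libraries above and 2 had both below, beside 14.4 and 15.1% of all genes, with a median log2 fold change of -0.04 and no call by either tool. Among these Zmpste24, the prelamin protease, stood at 32.2 and 26.0 against 26.0 and 22.6 CPM, and Rabggtb, a subunit of the Rab prenyl transferase, had a log2 fold change of 0.15 ± 0.15. Of the acetyl-CoA genes and paralogs, 1 of 6 tested had both ACC1 KO libraries above: Aacs, which activates acetoacetate in the cytosol, at 12.4 and 9.57 against 15.4 and 13.8 CPM. Acly, which makes cytosolic acetyl-CoA from citrate, stood at 52.9 and 56.5 against 56.0 and 65.0 CPM, and overlapped. The paralogs Acat3 (at most 0.60 CPM) and Idi2 (at most 0.05 CPM) were near 0 in every library. All of these comparisons share the same 4 libraries.

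Across 20 sums, 5 classes in each of 4 libraries, the level of each member was set beside the mean profile of the others. Pearson's r was 0.90 for Hmgcs1, 0.85 for Fdps, 0.83 for Acat2, 0.79 for Idi1 and 0.73 for Fdft1, and lower for Mvk (0.61), Pmvk (0.43) and Mvd (0.31), while Ggps1 had -0.28. The sums share libraries and depth, so these are descriptions without a test. Of 6044 other genes with a mean of at least 20 CPM, those most like the members' profile were Dpysl2 (0.84), Tmem41b (0.84), Heatr5a (0.83), Acaca (0.82), Pkp4 (0.81), Pank3 (0.78) and Fkbp4 (0.78).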

How the data were processed

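For each gene and barcode the authors deposited a count of unique molecular identifiers (UMIs). The submitters' processing notes name Cell Ranger 7.0.0 and the build mm10. No column of values lacked a sample. The 9 members, the gene lists and the tests were chosen with earlier results of these data known.

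A cell had to show 500 genes and 1000 UMIs or more, with a mitochondrial share below 10%. This took out 42, 33, 146 and 67 barcodes in the order WT 1, WT 2, ACC1 KO 1 and ACC1 KO 2. Scores for doublets were then taken against 2 simulated doublets per cell, and 4.36, 7.91, 5.02 and 6.83% of cells were removed. The rest were clustered on 2000 variable genes without the members or other lipid genes (30 principal components, 15 neighbours, Leiden resolution 1), with values scaled within the replicate number. Clusters were named from marker lists. Both that scaling and the score limits that decide a name were chosen with the data in view. Clusters like B cells, myeloid cells and DP thymocytes were left out, and a cluster whose leading genes held more markers of another class stayed unnamed.

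Sums of UMIs were made in each library, first for all iNKT cells and then by class wherever no library had fewer than 50 cells of it. A gene at 1 CPM in all iNKT cells thus rests on 23.4 to 65.0 UMIs. Genotypes were compared with the edgeR 4.0.16 quasi-likelihood F test (robust, TMM, filterByExpr, no covariate), and classes and their interaction with genotype in fits with the library as a term, with Benjamini-Hochberg adjustment over all genes and a threshold of 0.05. Intervals of counts are exact Poisson at 95% and cover counting error only. Scripts were tested on simulated data. Alternatives were DESeq2 1.42.0 and its size factors, other filters on low counts, the replicate number as a block, each library left out, every barcode, doublets kept, thinned sums, equal class mixes and other clusterings. All members are named in every comparison, of each surrounding list the 2 genes with the smallest p and the paralogs of members, and the 8 genes most like the members, save a few that are not reported here. Gene IDs matched GENCODE on the same build, and the 3′-end windows were read from its transcripts.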

Additional observations from a re-analysis of the deposited data

Results flagged for a closer look

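Some members stood in opposite orders in a small class and in iNKT1-like cells, with every library of a genotype on the same side. In iNKT0-like cells, the CD24 high precursors, the mean of Hmgcs1 was 18.1 CPM in WT libraries against 5.46 CPM in ACC1 KO libraries. Mvd had 7.21 and 1.37 CPM there, and Fdps 48.9 and 43.3 CPM. In iNKT17-like cells Mvk had 6.01 CPM in WT against 1.57 CPM in ACC1 KO. These means rest on few molecules, at most 22 UMIs per library. The difference between classes was not tested at this clustering because both classes fell under 50 cells in a library. At a resolution of 2 the iNKT0-like class took in more cells (98, 100, 192 and 183) and was tested. The interaction against iNKT1-like cells then called 1 member, in the negative direction, among 27 of 11383 genes (0.237%). Between genotypes it called no member there, with a median log2 fold change of 0.43 over the 8 tested.

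In DP thymocyte-like cells, which the comparisons leave out, 5 members had both ACC1 KO libraries above both WT libraries and the others did not. The share of all genes in this order was not taken for these cells. Mean levels in WT and ACC1 KO were 73.6 and 114 CPM for Fdps, 42.3 and 77.8 CPM for Idi1, 15.9 and 31.5 CPM for Acat2, 11.5 and 20.8 CPM for Fdft1, and 4.91 and 17.0 CPM for Mvk. The cells are thymocytes that passed the sort for CD3 and the tetramer, and 0 to 143 UMIs stand behind each library's value. They join cluster 11 (164, 60, 118 and 68 cells) with cluster 16 (53, 11, 92 and 22 cells), which has Ube2c and Birc5 among its leading genes. Their median depths relative to the library were 0.38 and 2.11, so the part of deep, mitotic cells differed between libraries.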

How the results depend on the processing

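Over all iNKT cells edgeR called 1 gene and no member. It called 0 genes with every deposited barcode, with genes whose mean reached 10 CPM and with thinned sums, 2 genes with the same mix of classes or of clusters, the latter chosen after seeing the data, and 12 to 47 genes and 1 member with a library left out. DESeq2's Wald test called 104 genes and 3 members, and no filter on low counts 359 genes and 3 members. The direction of the 8 higher members was the same under all alternatives run in all iNKT cells. Ggps1 turned to 0.0327 with the same mix of clusters and ran from -0.13 to 0.0357 with a library left out.

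The replicate number was also tried as a block. Same-numbered libraries deviated together (r = 0.87 over 7969 genes), but the labels do not say what a number marks and only 2 pairs exist, so the pairing is a hint from the data. With the block 8 members and 1617 genes were called in all iNKT cells (adjusted p = 0.844 for Ggps1), 8 members in iNKT1-like, 3 in cycling, 1 in iNKT2-like, 4 in interferon-responding and 1 in Izumo1r and Maf cluster cells, beside 1270, 229, 80, 355 and 390 genes.

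Within classes, DESeq2 called 3, 1 and 1 members between genotypes in iNKT1-like, cycling and interferon-responding cells, and no filter called 6, 1, 2 and, in the Izumo1r and Maf cluster, 1. With a library left out the count ran from 0 to 2 in iNKT1-like and 0 to 1 in cycling cells, and was 1 in interferon-responding cells. Apart from the block, all genes called ran from 0 to 213 in iNKT1-like (2 in the report), 2 to 39 in cycling (4), 0 to 55 in iNKT2-like (0), 4 to 71 in interferon-responding (5) and 4 to 127 in Izumo1r and Maf cluster cells (35). For the interactions they ran from 3 to 34 in cycling (11), 11 to 60 in iNKT2-like (19), 0 to 2 in interferon-responding (0) and 1 to 134 in Izumo1r and Maf cluster cells (53). Hmgcs1 in iNKT2-like cells turned to -0.18 with clusters made with lipid genes and ran from -0.0779 to 0.0924 with a library left out, and in the Izumo1r and Maf cluster from -0.28 to 0.63.

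Members called between iNKT2-like and iNKT1-like cells ran from 4 to 7 with a library left out, beside 44.3 to 49.3% of all genes. Between the Izumo1r and Maf cluster and iNKT1-like cells they ran from 0 to 2, with 1 under DESeq2 and 1 at resolution 2. All genes called in the latter ran from 807 to 1494 (1299). Fdps between iNKT2-like and iNKT1-like cells turned to -0.0727 with clusters made with lipid genes and ran from -0.076 to 0.22 with a library left out. Mvd between cycling and iNKT1-like cells ran from -0.14 to 0.0051. At resolution 0.5 the interaction in iNKT2-like cells gave 1 member call, Fdps, while that of Idi1 turned to -0.41, and it ran from -0.0557 to 0.19 with a library left out. The causes were not tested. Without thinning, the gap in the share of cells with Fdps was 16.5 rather than 5.97 percentage points.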
